A study of Mus musculus with 21 samples.

Results

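The 76 mitochondrial ribosomal protein genes of the table, 47 Mrpl and 29 Mrps genes among 11628 genes, were followed across 3 bone marrow progenitor populations of Etv6 mutant and wild-type mice. Members are all genes whose symbol starts with Mrpl or Mrps and a number, a rule that reads symbols and no measured value. Polyadenylated RNA of sorted cells was sequenced after SMART-seq v4 cDNA synthesis and NexteraXT tagmentation. The mutant mice were homozygous, labelled ETV6 mt/mt, for a change the series writes as h.P214L; the other mice were wild type. Libraries are numbered within a group, values below follow that numbering, and each population had 4 mutant and 3 wild-type libraries. Hematopoietic stem cells (HSC) were gated as lineage-negative, cKit+, Sca1+, FLK2-neg, CD150+ and CD38-neg. Multipotent progenitors (MPP4) shared the first 3 of these criteria but were FLK2+. Common lymphoid progenitors (CLP) carried low cKit and low Sca1 beside IL7+ and Flk2+ and were also negative for lineage markers. Mice were 10 or 12 weeks old, and library number 2 of each group came from a male, all others from females. The labels name no restriction of the mutation to a cell type. The 21 libraries came from 3 wild-type and 4 mutant mice by the series description, so populations would share mice, but the labels do not say which; mutant CLP 4 is given as 10 weeks old, and mutant HSC 4 and MPP4 4 as 12 weeks. P-values measure the spread between these libraries.

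The proteins of the mitochondrial ribosome, which works in the mitochondrial matrix, are encoded by nuclear genes, made in the cytoplasm and imported, while its RNA comes from mitochondrial DNA. It translates only the few respiratory chain and ATP synthase subunits that mitochondrial DNA encodes. Stem cells of the marrow are known for low mitochondrial activity and restrained protein synthesis, and their cycling progeny for more of both. Etv6 encodes a transcriptional repressor of the ETS family, whose members read a GGAA core.

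Values are RPKM, reads scaled to transcript length and library size. The lengths used are unknown, as are counts and depth, so levels set beside each other between genes are approximate. Of 8 genes listed for the gates, only Flt3 and Il7r are given here. Levels of Kit, Ly6a, Slamf1, Cd38, Cd48 and Cd34 are not given, so the gates as a whole are not checked. Flt3, the receptor called Flk2, lay at 13.97 ± 2.84 RPKM in mutant HSC and 14.9 ± 1.91 RPKM in wild-type HSC. The lowest MPP4 or CLP library held 349.0 RPKM of Flt3. Il7r reached 89.8 ± 10.7 RPKM in mutant CLP and 91.3 ± 3.73 RPKM in wild-type CLP. Etv6 itself did not pass the test between genotypes, at 105.2 ± 7.48 RPKM in mutant HSC and 112.6 ± 6.91 RPKM in wild-type HSC, and a point change leaves its transcript level no check of the labels. RNA of other lineages varied between libraries: 11 erythroid genes summed to 129.6 to 6127.6 RPKM over the 21 libraries and 9 neutrophil genes to 93.9 to 2337.7 RPKM. In bulk samples fewer cells of a type and less RNA per cell cannot be told apart. Libraries that stood low for the members were wild-type CLP 2, with a member median of 29.77 RPKM, and the mutant libraries numbered 1, which had the lowest member median of the mutant libraries in each population, at 30.11 RPKM in HSC, 33.44 RPKM in MPP4 and 32.3 RPKM in CLP. Of the 21 libraries, wild-type CLP 2 was also lowest in the mean of 85 cytoplasmic ribosomal protein genes, and mutant HSC 1 and mutant MPP4 1 were among its 3 lowest; the part of this in the results was not tested.

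All 76 genes were measured in every library, with 4.06 RPKM as the lowest single value, and all passed the filter of at least 1 RPKM in 3 libraries. Their mean levels over the 21 libraries ran between 5.64 RPKM for Mrps22 and 117.3 RPKM for Mrpl42, with a median of 36.06 RPKM, against 13.45 RPKM for the median gene of all 11496 kept. Transcript levels within the family thus spanned a 20.8-fold range. The 5 highest were Mrpl42, Mrpl18, Mrpl34, Mrpl23 and Mrps21, and the 5 lowest were Mrps22, Mrps25, Mrps31, Mrpl1 and Mrpl19. Large-subunit and small-subunit genes had similar medians, at 34.16 RPKM for Mrpl and 37.39 RPKM for Mrps. Some names mislead here: as background, the proteins of Mrps30 and Mrps18a sit in the large subunit of the mammalian particle, and that of Mrps36 belongs to the oxoglutarate dehydrogenase complex. The genes lie on 17 chromosomes, 10 of them on chromosome 11.

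Group means of the members lay closer together than those of the median gene. The highest of the 6 group means was a median of 1.22 times the lowest, against 1.38 times for the 8896 genes with a mean of at least 5 RPKM. This ratio stayed under 1.5 in 73 of 76 members, 96.05%, against 60.31% of those genes. That set was not matched to the members in level, so no trait particular to the family is shown. Mrpl52 was the only member past 2, at 2.35. Together the 76 genes made up 0.756% to 0.879% of the RPKM sum of a library. Replicates of a group differed by a median SD of 0.143 on the log2 scale for the members and 0.161 for genes of at least 5 RPKM, and Mrpl14, Mrps21, Mrpl52, Mrpl33 and Mrps6 varied most within groups.

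**Figure D1:**
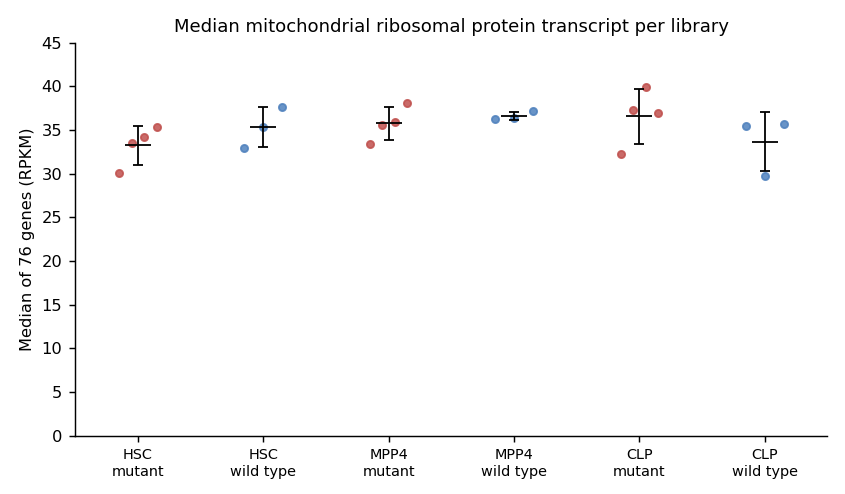
The vertical axis is the median RPKM of the 76 genes in each library and the horizontal axis the 6 groups; points are libraries, red for mutant and blue for wild type, and bars the mean ± SD (n = 4 mutant, n = 3 wild type). Medians lie between 29.77 and 39.87 RPKM, and the groups of every population overlap.

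Promoter sequences are given for 4 members whose levels differed between stages, since Etv6 belongs to a family that binds ETS motifs. RefSeq promoter windows of GRCm38.p6, 250 bases before to 50 after an annotated start, were at hand for 67 of the 76 genes. Mrpl43 (chr19:45006393-45006692, minus strand) and Mrpl37 (chr4:107066817-107067116, minus strand) were higher in MPP4 than in HSC, while Mrpl52 (chr14:54426659-54426958, plus strand) and Mrpl16 (chr19:11770165-11770464, plus strand) were lower. Capitals mark matches to the ETS motif CCGGAAG, the NRF1 motif CGCATGC, the E-box CACGTG and the YY1 motif ATGGCGG on either strand.
Mrpl43: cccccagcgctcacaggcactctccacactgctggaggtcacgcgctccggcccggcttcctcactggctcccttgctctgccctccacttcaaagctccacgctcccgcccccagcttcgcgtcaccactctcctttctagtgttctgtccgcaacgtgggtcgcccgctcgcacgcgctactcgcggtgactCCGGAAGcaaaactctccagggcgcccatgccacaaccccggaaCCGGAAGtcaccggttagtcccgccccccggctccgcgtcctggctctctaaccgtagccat
Mrpl37: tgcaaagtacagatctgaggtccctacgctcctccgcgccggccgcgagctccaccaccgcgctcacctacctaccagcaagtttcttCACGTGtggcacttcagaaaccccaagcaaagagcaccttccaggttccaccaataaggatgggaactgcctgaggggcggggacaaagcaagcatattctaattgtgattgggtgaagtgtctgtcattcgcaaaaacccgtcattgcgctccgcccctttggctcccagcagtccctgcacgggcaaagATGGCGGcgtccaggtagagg
Mrpl52: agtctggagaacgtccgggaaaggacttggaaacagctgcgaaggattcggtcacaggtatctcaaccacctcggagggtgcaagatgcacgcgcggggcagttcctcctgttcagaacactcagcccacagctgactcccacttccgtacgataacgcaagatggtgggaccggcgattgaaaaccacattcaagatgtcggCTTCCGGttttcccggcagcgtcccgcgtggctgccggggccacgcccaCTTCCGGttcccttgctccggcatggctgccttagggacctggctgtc
Mrpl16: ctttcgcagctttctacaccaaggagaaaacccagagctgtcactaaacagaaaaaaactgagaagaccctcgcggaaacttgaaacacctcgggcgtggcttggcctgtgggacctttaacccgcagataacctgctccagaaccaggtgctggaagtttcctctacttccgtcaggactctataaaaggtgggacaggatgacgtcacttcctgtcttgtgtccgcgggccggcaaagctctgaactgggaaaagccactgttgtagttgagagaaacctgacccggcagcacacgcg
The window of Mrpl43 holds 2 ETS matches and that of Mrpl52 also holds 2. Mrpl37 has 1 E-box and 1 YY1 match, and Mrpl16 has no exact match to the 4 motifs. Only exact matches were counted, and the shorter GGAA core of ETS factors also stands in the Mrpl37 and Mrpl16 windows. Across the family 24 of 67 genes, 35.8%, held an ETS match, against 21.2% of all kept genes with a window and 9.9% of all 27025 genes with one. YY1 matches stood in 17.9% of members and 9.9% of kept genes, NRF1 matches in 11.9% of members and 7.6% of kept genes, and the E-box in 7.5% of members and 12.0% of kept genes. Genes of cytoplasmic ribosomal proteins had ETS matches in 39.7%, and respiratory chain and ATP synthase genes in 24.2%. For 12 of the 67 genes, Mrpl18 and Mrps10 among them, no window lay within 300 bases of the annotated gene start; of the other 55, 20 had an ETS match in a window at the start, 36.4%. A match is a run of letters, binding was not measured, and a part of any motif in the levels was not tested.

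Between mutant and wild-type mice, no member passed the test in any population. Under limma with Benjamini-Hochberg adjustment over 11496 genes, 0 of 76 members were called in HSC, where 0.0522% of all genes were, 0 in MPP4, where 0.217% were, and 0 in CLP, where 0% were. At an unadjusted p under 0.05 there were 1, 2 and 8 of 76 members, against 4.45%, 8.14% and 4.41% of all genes. The member share was below that of all genes in HSC and MPP4 and above it in CLP. These shares carry no test, since members share their libraries. The intervals bound the differences: the 95% interval of the log2 change lay within 0.5 of zero for 73 members in HSC, 74 in MPP4 and 72 in CLP, and within 1 for all 76 in each. Changes are mutant minus wild type on the log2(RPKM + 1) scale, and a missed threshold does not show equal levels.

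The family's medians leaned in different directions. They were -0.06 in HSC, -0.07 in MPP4 and 0.08 in CLP, against 0.01, 0.02 and 0.00 for all genes, with 58 of 76 members below zero in HSC, 64 below in MPP4 and 62 above in CLP; of all genes, 46.3%, 44.2% and 51.3% lay on those sides. A change below zero in both HSC and MPP4 and above zero in CLP was found in 42 of 76 members, 55.26%, and in 11.63% of all genes. This pattern has the signs of the members' own medians, so a higher share among them was built in. Members share their libraries, so these counts describe few libraries and carry no test. Leaving out mutant HSC 1 brought the HSC median to -0.02, as did leaving out wild-type HSC 3, and leaving out mutant MPP4 1 brought the MPP4 median to -0.03. In MPP4, 11 of 11 erythroid genes lay above zero, with a median change of 1.48 and none past the test, and summed megakaryocyte genes stood at 279.4 RPKM in mutant MPP4 1 and 51.6 to 65.9 RPKM in the other mutant libraries, against 201.3 RPKM in wild-type MPP4 1 and 26.4 to 33.1 RPKM in the other wild-type libraries; their part in the MPP4 median was not tested. The CLP median was 0.02 without wild-type CLP 2, 0.05 without mutant CLP 3, and 0.14 without mutant CLP 1. Cytoplasmic ribosomal protein genes had medians of -0.16, -0.17 and 0.13 in the same comparisons, and respiratory chain and ATP synthase genes -0.09, -0.11 and 0.09.

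The smallest adjusted p between genotypes belonged to Mrpl12, whose protein forms the flexible stalk of the large subunit that recruits translation factors (chr11:120484637-120488754). Mutant HSC held 64.0, 66.2, 55.3 and 57.9 RPKM of Mrpl12, against 68.8, 77.9 and 49.96 RPKM in wild-type HSC. In MPP4, Mrpl12 stood at 62.6, 74.1, 71.2 and 76.1 RPKM in mutants, against 89.7, 94.7 and 84.8 RPKM in wild type. For CLP the Mrpl12 values were 66.5, 70.9, 76.1 and 75.8 RPKM in mutants, against 72.3, 59.5 and 73.2 RPKM in wild type. All 4 mutant MPP4 libraries lay below all 3 wild-type ones, while the HSC and CLP groups overlapped. The MPP4 change was -0.34 ± 0.12 (SE; 95% interval -0.58 to -0.09; limma, adjusted p = 0.363). Mrpl12 shares 200 exonic bases, 13.1%, with Gm16755 on the opposite strand. The other stalk genes did not pass in MPP4, with Mrpl10 at 40.3 ± 3.27 RPKM in mutants and 43.6 ± 1.45 RPKM in wild type, and Mrpl11 at 13.6 ± 2.09 RPKM in mutants and 13.6 ± 0.05 RPKM in wild type. In MPP4 the values of 7 members did not overlap between genotypes, all lower in mutants, which is 9.21% of members. Of all 11496 genes 10.1% did not overlap in either direction, 768 higher and 392 lower in mutants. The share of all genes that were lower was thus smaller than that of members, and it carries no test. In HSC 1 member did not overlap and in CLP 3, or 1.32% and 3.95%, against 5.25% and 4.12% of all genes. Mrpl57, a large-subunit gene, had the smallest p in HSC, with a change of -0.27 ± 0.13 (95% interval -0.54 to -0.00; limma, adjusted p = 1.00), from 17.99, 18.6, 20.2 and 22.0 RPKM in mutants against 24.9, 21.7 and 25.2 RPKM in wild type, where wild-type 2 lies within the mutant range.

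In CLP the 3 members with the smallest p and a change above 0.3 were Mrpl14, Mrpl27 and Mrpl52, all proteins of the large subunit. CLP libraries held 59.6, 69.2, 78.5 and 70.3 RPKM of Mrpl14 in mutants, against 61.6, 29.7 and 65.4 RPKM in wild type. Mrpl27 stood at 44.5, 48.5, 58.3 and 57.1 RPKM in mutant CLP, against 48.3, 27.1 and 45.6 RPKM in wild-type CLP. For both genes wild-type CLP 2 was far below the rest and the groups overlapped; Mrpl14 shares 11.2% of its exonic bases with Tmem63b and Mrpl27 7.6% with Eme1, both on the opposite strand. The changes were 0.48 ± 0.18 for Mrpl14 (limma, adjusted p = 0.976) and 0.39 ± 0.15 for Mrpl27 (limma, adjusted p = 0.992); without wild-type CLP 2 they were 0.12 and 0.14. In CLP the summed erythroid genes spanned 129.6 to 6127.6 RPKM in mutants and 1191.4 to 1955.0 RPKM in wild type, and 11 B-lineage genes, all with a change below zero, 270.7 to 585.4 RPKM in mutants and 487.5 to 644.5 RPKM in wild type; their part was not tested. Mrpl40, a further large-subunit gene, had the smallest p, with 46.6 ± 3.65 RPKM in mutants and 39.4 ± 2.91 RPKM in wild type and a change of 0.24 ± 0.09 (limma, adjusted p = 0.944). The paralogs Mrps18a, Mrps18b and Mrps18c, copies of a bacterial small-subunit gene that go to different positions, had changes of 0.13, -0.07 and 0.17 in CLP and did not pass.

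**Figure D2:**
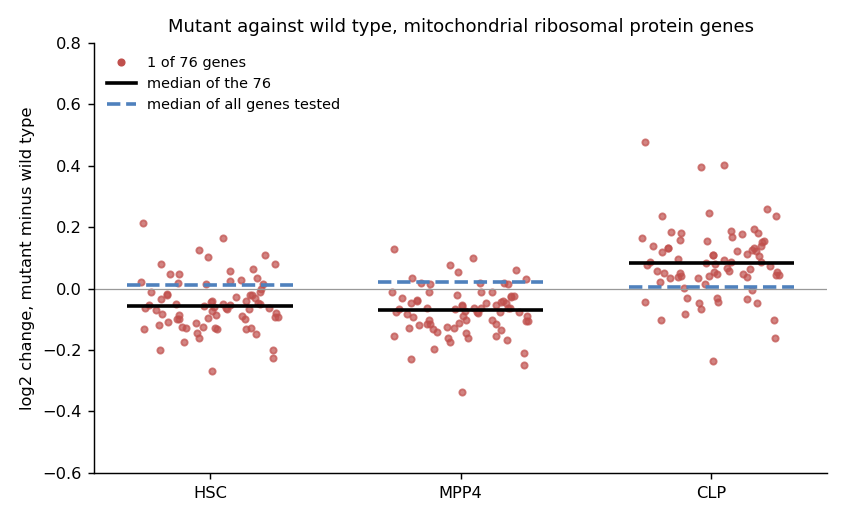
Each red point is the log2 change of 1 of the 76 genes, mutant minus wild type on the log2(RPKM + 1) scale, in HSC, MPP4 and CLP; points are spread sideways only to be seen. The black line is their median, at -0.06, -0.07 and 0.08, and the dashed blue line the median of all genes tested, at 0.01, 0.02 and 0.00; no point passed the test.

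Whether the genotype difference itself changed between populations was tested by differences of effects. No member was called for MPP4 against HSC or CLP against MPP4, where 0% of all genes were called in each, nor for CLP against HSC, where 0.0087% were. At unadjusted p under 0.05 there were 0, 7 and 6 members in these 3 tests, against 3.79%, 3.84% and 3.65% of all genes. The medians were -0.02, 0.16 and 0.15, against 0.01, -0.02 and -0.01 for all genes. Mrpl27 had the smallest p, for CLP against MPP4, with a difference of 0.59 ± 0.22 (95% interval 0.14 to 1.04; limma, adjusted p = 0.998); without wild-type CLP 2 it was 0.33.

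Between stages members were called, at lower shares than genes at large. In MPP4 against HSC, 4 members rose and 4 fell in mutant mice, 10.5% of 76, against 39.1% of all genes called (16% higher and 23.1% lower), and 7 rose and 3 fell in wild-type mice, 13.2%, against 39.3% of all genes (16.1% and 23.3%). In CLP against MPP4, 1 member rose and 0 fell in mutants, 1.32%, against 24.3% of all genes (7.86% higher and 16.4% lower), and 0 rose and 2 fell in wild type, 2.63%, against 13.1% (4.77% and 8.38%). In CLP against HSC, 19 rose and 4 fell in mutants, 30.3%, against 57.8% of all genes (21.8% higher and 36% lower), and 5 rose and 11 fell in wild type, 21.1%, against 51.1% (19.4% and 31.7%). Over all steps 35 members were called at least once and 41 in none. The split of directions depends on how libraries are scaled. Median-ratio scaling moved the median change of all genes in CLP against HSC by about 0.1, to -0.01 in mutants and 0.00 in wild type, and the members called higher and lower became 36 and 3 in mutants and 11 and 3 in wild type; under quantile normalization they were 22 and 6 in mutants and 6 and 9 in wild type. With median-ratio scaling the members called made up 51.3% in mutants and 18.4% in wild type, against 58.4% and 50.9% of all genes; those called higher were 47.4% of members and 28.5% of all genes in mutants, and 14.5% of members and 24.8% of all genes in wild type. With quantile normalization 36.8% of members were called in mutants and 19.7% in wild type, against 55.4% and 49.5% of all genes. Those called higher were then 28.9% of members and 27.7% of all genes in mutants, and 7.89% and 25.4% in wild type. For MPP4 against HSC, median-ratio scaling gave 10 higher and 1 lower in mutants and 17 higher and 1 lower in wild type, and quantile normalization 6 and 3 in mutants and 9 and 3 in wild type; all genes called were 38.7% in mutants and 39.5% in wild type under the first and 39.2% and 38.2% under the second. Under median-ratio scaling, 13.2% of members and 18.1% of all genes were called higher in MPP4 against HSC in mutants. In wild type these shares were 22.4% and 19.0%. In CLP against MPP4 median-ratio scaling gave 9 higher and 0 lower in mutants and 0 higher and 1 lower in wild type. All genes called were 24.7% and 12.8%, and the mutant share called higher was 11.8% of members and 11.3% of all genes. The 3 steps of a genotype share libraries, so their counts are not independent. If a number marks 1 mouse of a genotype, stages share mice, which these fits leave out. A replicate block on number and genotype gave 4 higher and 2 lower in mutants for CLP against MPP4, with 30.0% of all genes called. In wild type it gave 0 higher and 6 lower, with 17.5% of all genes. For MPP4 against HSC in mutants it gave 9 higher and 4 lower, with 44.4%.

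Mrpl18 and Mrpl37 were called higher in MPP4 than in HSC and in CLP than in HSC in both genotypes, and these calls held under all alternatives tried. Mrpl18 encodes a large-subunit protein that, in human cells, also takes part in bringing 5S ribosomal RNA into mitochondria (chr17:12911345-12917787). Mutant HSC held 62.0, 71.2, 67.4 and 78.3 RPKM of Mrpl18, against 81.5, 82.8 and 65.0 RPKM in wild-type HSC. In MPP4, Mrpl18 stood at 91.7, 100.4, 89.1 and 90.6 RPKM in mutants, against 109.2, 100.8 and 95.6 RPKM in wild type. For CLP the Mrpl18 values were 102.3, 114.9, 114.8 and 107.0 RPKM in mutants, against 114.9, 92.4 and 104.3 RPKM in wild type. Every MPP4 and CLP library lay above every HSC library. The change in MPP4 against HSC was 0.41 ± 0.09 in mutants (SE; limma, adjusted p = 0.000865) and 0.42 ± 0.10 in wild type (limma, adjusted p = 0.00285). For CLP against HSC it was 0.65 ± 0.09 in mutants (limma, adjusted p = 2.73e-06) and 0.44 ± 0.10 in wild type (limma, adjusted p = 0.00123). The annotated exons of Mrpl18 share 141 bases, 10.1% of their length, with Tcp1 on the opposite strand, a chaperonin subunit gene, and the kit does not mark strand. Tcp1 was also higher in MPP4 than in HSC, at 72.1 ± 4.37 RPKM against 58.6 ± 2.90 RPKM in mutants and at 82.5 ± 3.98 RPKM against 58.7 ± 5.75 RPKM in wild type; its part in the Mrpl18 values was not tested.

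Mrpl37 encodes a mitochondria-specific protein of the large subunit, and its gene overlaps no other annotated exon (chr4:107055874-107066866). Mutant HSC held 41.6, 43.3, 46.2 and 38.5 RPKM of Mrpl37, against 40.0, 38.5 and 44.4 RPKM in wild-type HSC. In MPP4, Mrpl37 stood at 55.0, 50.2, 51.4 and 51.2 RPKM in mutants, against 52.6, 55.3 and 52.2 RPKM in wild type. For CLP the Mrpl37 values were 52.9, 52.6, 49.7 and 51.6 RPKM in mutants, against 57.8, 53.7 and 49.0 RPKM in wild type. All HSC libraries lay below all MPP4 and CLP libraries, and MPP4 and CLP overlapped. In MPP4 against HSC the change was 0.29 ± 0.07 in mutants (limma, adjusted p = 0.00176) and 0.38 ± 0.08 in wild type (limma, adjusted p = 0.000624). Mrps10, a small-subunit head protein (chr17:47368887-47381418), followed with a wider spread. Mutant HSC held 32.0, 27.5, 30.3 and 31.2 RPKM of Mrps10, against 31.8, 24.5 and 24.8 RPKM in wild-type HSC. In MPP4, Mrps10 stood at 42.0, 33.4, 33.2 and 39.3 RPKM in mutants, against 49.1, 40.0 and 32.4 RPKM in wild type. For CLP the Mrps10 values were 37.3, 35.7, 43.6 and 44.5 RPKM in mutants, against 48.4, 41.9 and 33.9 RPKM in wild type. Within each genotype the HSC values lay below all MPP4 and CLP values. Its MPP4 change was 0.28 ± 0.13 in mutants (limma, adjusted p = 0.097), which did not pass, and 0.56 ± 0.15 in wild type (limma, adjusted p = 0.00507); in CLP against HSC Mrps10 was called higher in both, at 0.40 ± 0.13 in mutants and 0.59 ± 0.15 in wild type.

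Among other members that were higher outside HSC, Mrpl43 encodes a large-subunit protein (chr19:45005014-45006442). Mutant HSC held 24.7, 29.4, 28.1 and 29.1 RPKM of Mrpl43, against 24.6, 30.3 and 37.6 RPKM in wild-type HSC. In MPP4, Mrpl43 stood at 35.5, 32.7, 40.1 and 39.1 RPKM in mutants, against 40.1, 35.1 and 41.5 RPKM in wild type. For CLP the Mrpl43 values were 33.3, 40.7, 44.4 and 38.4 RPKM in mutants, against 35.8, 38.4 and 38.5 RPKM in wild type. Mutant HSC lay below all mutant MPP4 and CLP libraries, but the third wild-type HSC library overlapped both later stages. For MPP4 against HSC the change was 0.39 ± 0.11 in mutants (limma, adjusted p = 0.00729) and 0.34 ± 0.13 in wild type (limma, adjusted p = 0.0367); the wild-type call was lost when wild-type HSC 1, HSC 2, MPP4 1 or MPP4 3 was left out or only the groups compared were fitted, and without HSC 1 the change was 0.20. Of its exonic length 33.4% is shared with the gene of the mitochondrial helicase Twinkle, listed as Peo1, on the opposite strand; Peo1 was lower in MPP4 than in HSC, at 17.5 ± 0.82 RPKM against 21.1 ± 1.04 RPKM in mutants. In the main fit Mrps36 was the only member called in CLP against MPP4 in mutants, at 0.29 ± 0.10 (limma, adjusted p = 0.0458, chr13:100735940-100744659). This call was lost without any 1 of 6 of the 8 libraries and under quantile normalization. It was also lost with only the groups compared, with library weights, and with sex and age terms. Mutant HSC held 23.3, 22.4, 24.9 and 25.1 RPKM of Mrps36, against 26.0, 24.8 and 23.8 RPKM in wild-type HSC. In MPP4, Mrps36 stood at 26.3, 25.7, 32.4 and 30.2 RPKM in mutants, against 31.5, 28.9 and 28.5 RPKM in wild type. For CLP the Mrps36 values were 27.9, 40.8, 38.4 and 34.6 RPKM in mutants, against 34.4, 28.7 and 36.3 RPKM in wild type. Wild-type and mutant CLP lay above HSC in every library, and mutant CLP overlapped mutant MPP4. In CLP against HSC its change was 0.53 ± 0.10 in mutants and 0.39 ± 0.12 in wild type, and Mrpl49, a further large-subunit gene, rose by 0.28 in mutants and 0.35 in wild type, calls lost without mutant CLP 2 or HSC 1 and without wild-type HSC 3.

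**Figure D3:**
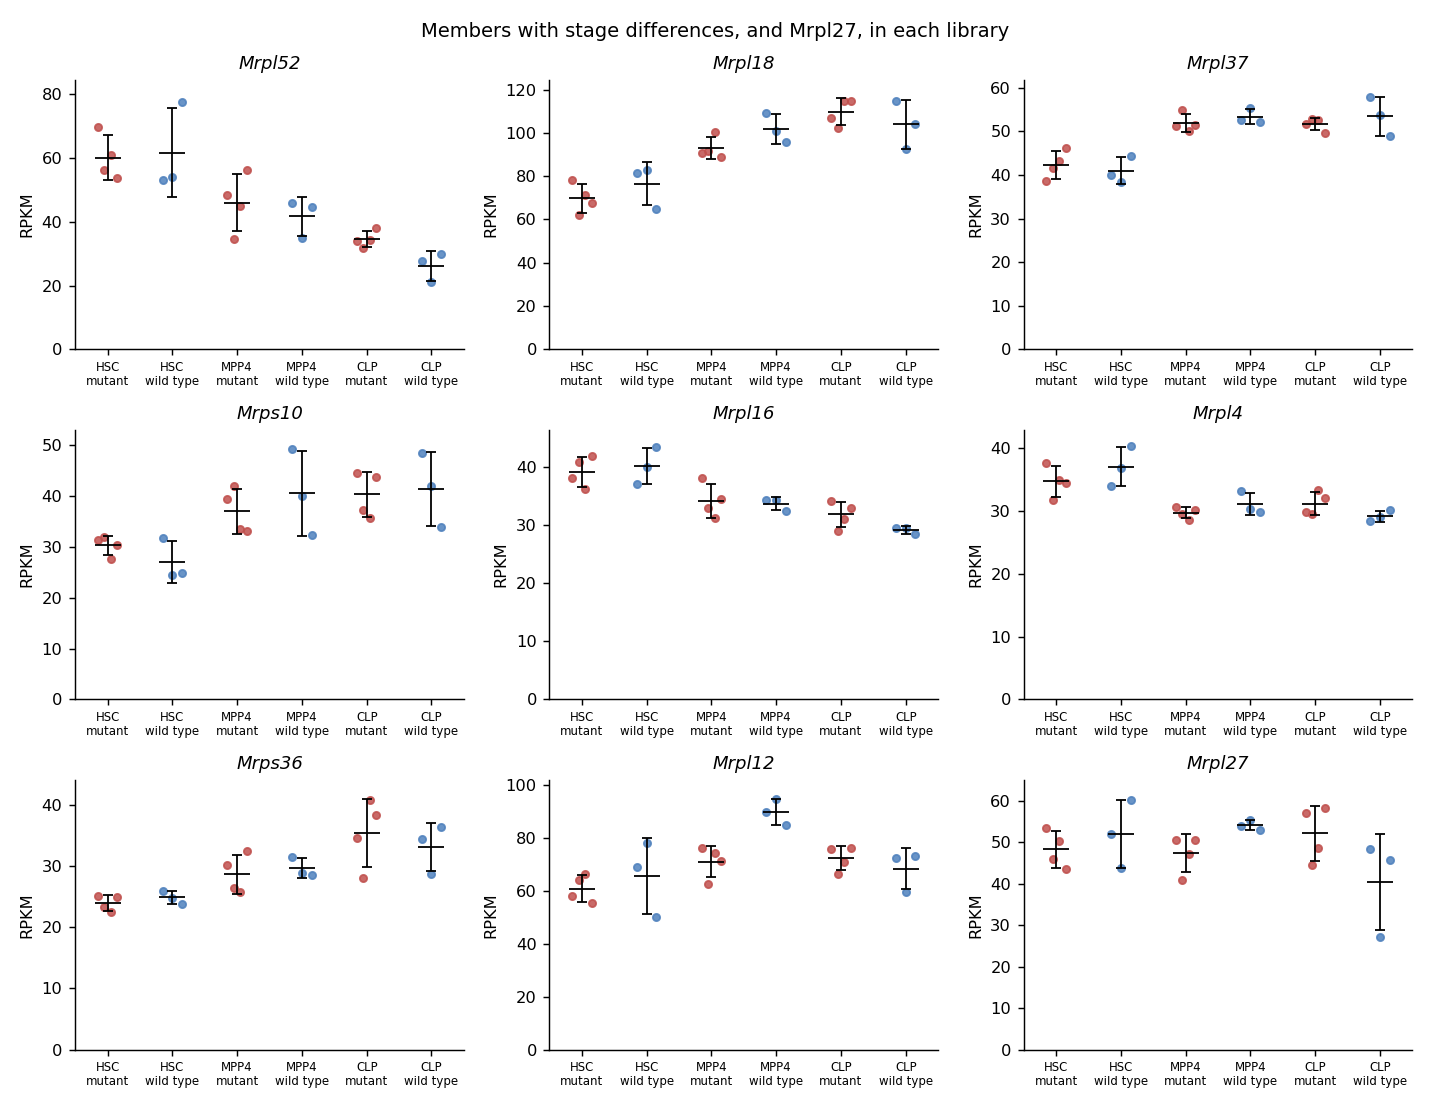
Each panel shows 1 gene, with RPKM on the vertical axis and the 6 groups on the horizontal axis; points are libraries, red for mutant and blue for wild type, and bars the mean ± SD (n = 4 mutant, n = 3 wild type). Mrpl52 is lowest in CLP and Mrpl18 lowest in HSC in both genotypes, and 1 wild-type CLP library stands far below the other CLP values for Mrpl27.

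Mrpl52 showed the widest difference of the family and ran the other way. It encodes a small mitochondria-specific protein of the large subunit, and its exons overlap no other annotated gene (chr14:54426909-54429750). Mutant HSC held 56.1, 60.8, 53.7 and 69.6 RPKM of Mrpl52, against 53.1, 54.0 and 77.7 RPKM in wild-type HSC. In MPP4, Mrpl52 stood at 34.6, 44.9, 56.1 and 48.3 RPKM in mutants, against 45.9, 34.8 and 44.5 RPKM in wild type. For CLP the Mrpl52 values were 31.9, 34.3, 38.2 and 34.0 RPKM in mutants, against 27.7, 20.98 and 29.9 RPKM in wild type. The HSC values lay above all CLP values, and all 4 mutant CLP libraries lay above the 3 wild-type ones. CLP against HSC gave -0.77 ± 0.15 in mutants (limma, adjusted p = 0.000137) and -1.20 ± 0.17 in wild type (limma, adjusted p = 6.02e-06), calls that held under all alternatives. In CLP the mutant change was 0.40 ± 0.16 (limma, adjusted p = 0.992), and 0.26 without wild-type CLP 2. The smaller steps were less firm: for MPP4 against HSC the change was -0.39 ± 0.15 in mutants and -0.54 ± 0.17 in wild type, and the wild-type value was -0.36, no longer called, without wild-type HSC 3, and -0.42 without wild-type MPP4 2. For the mutant step the call was lost without mutant HSC 2 or 4 or mutant MPP4 1 or 2, with -0.26 without MPP4 1, and under median-ratio scaling. For CLP against MPP4 the wild-type change of -0.66 ± 0.17 was called (limma, adjusted p = 0.0115) but not without wild-type CLP 2, where it was -0.51, or MPP4 1, where it was -0.59.

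Mrpl16 and Mrpl4, both large-subunit proteins with bacterial counterparts, were also lower in CLP than in HSC, Mrpl16 by the test in both genotypes and Mrpl4 in wild type. Mrpl16 lies near the peptidyl transferase centre (chr19:11770415-11774956). Mutant HSC held 40.9, 36.3, 41.9 and 38.1 RPKM of Mrpl16, against 37.2, 40.0 and 43.5 RPKM in wild-type HSC. In MPP4, Mrpl16 stood at 32.96, 31.3, 34.6 and 38.2 RPKM in mutants, against 34.3, 34.5 and 32.5 RPKM in wild type. For CLP the Mrpl16 values were 29.1, 31.2, 33.04 and 34.2 RPKM in mutants, against 29.5, 29.6 and 28.4 RPKM in wild type. Wild-type CLP lay below wild-type MPP4, which lay below wild-type HSC, and in mutants CLP lay below HSC. CLP against HSC gave -0.29 ± 0.07 in mutants (limma, adjusted p = 0.00188) and -0.45 ± 0.08 in wild type (limma, adjusted p = 0.000175). MPP4 against HSC gave -0.19 ± 0.07 in mutants and -0.24 ± 0.08 in wild type; both were called, but not under median-ratio scaling. With only the groups compared both calls were lost too, and the mutant call also with library weights. The mutant call was also lost without any 1 of mutant HSC 1, 3 and 4 and MPP4 1, 2 and 3. The wild-type call was lost without wild-type HSC 2 or 3 or MPP4 3. Mrpl4 lines the exit tunnel (chr9:21001252-21008839). Mutant HSC held 31.7, 34.9, 34.4 and 37.6 RPKM of Mrpl4, against 34.0, 36.8 and 40.2 RPKM in wild-type HSC. In MPP4, Mrpl4 stood at 29.4, 28.5, 30.2 and 30.6 RPKM in mutants, against 33.1, 30.3 and 29.8 RPKM in wild type. For CLP the Mrpl4 values were 29.4, 33.3, 32.0 and 29.9 RPKM in mutants, against 28.3, 28.9 and 30.1 RPKM in wild type. HSC lay above MPP4 in both genotypes, but mutant CLP reached into the range of mutant HSC. CLP against HSC gave -0.15 ± 0.07 in mutants (limma, adjusted p = 0.0676) and -0.33 ± 0.08 in wild type (limma, adjusted p = 0.00146); the difference between genotypes did not pass. In MPP4 against HSC, Mrpl4 was called lower at -0.22 ± 0.07 in mutants, except without mutant HSC 4. In wild type it was called lower at -0.24 ± 0.08. That call was lost without wild-type HSC 3, MPP4 2 or MPP4 3, under median-ratio scaling, and with only the groups compared.

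For Mrpl12, wild-type MPP4 stood above both other wild-type stages, with a rise of 0.47 ± 0.13 against HSC (limma, adjusted p = 0.00533) and a fall of -0.39 ± 0.13 in CLP against MPP4 (limma, adjusted p = 0.0429). The second was lost when any 1 wild-type MPP4 library or wild-type CLP 1 or 2 was left out, and was -0.30 without CLP 2; it was also lost under median-ratio scaling and quantile normalization. In mutants neither step was called. Mrps34 and Mrpl15 were called higher in wild-type MPP4 at 0.34 and 0.30. The first was lost without wild-type HSC 1 or 3 or MPP4 1 or 3, and the second without any 1 of the 6 libraries. With only the groups compared both calls were lost. Mrps34 was also lost with library weights and with sex and age terms, and Mrpl15 with a sex term. Mutant MPP4 also had Mrps28 called higher, at 0.28 ± 0.10, and Mrpl17 called lower, at -0.24 ± 0.09. The Mrps28 call was lost without mutant HSC 1 or 3 or MPP4 3 or 4, and that of Mrpl17 without any 1 mutant HSC library or MPP4 1 or 2. Both were lost with only the groups compared, and Mrpl17 also under median-ratio scaling, quantile normalization and library weights.

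CLP against HSC held the most calls. In mutants the members called higher beside those above included Mrpl36 at 0.41 ± 0.10, Mrpl34 at 0.44 ± 0.11, Mrps18a at 0.34 ± 0.09, Mrps28 at 0.37 ± 0.10 and Mrpl28 at 0.33 ± 0.09. Mrpl45, whose protein anchors the particle at the inner membrane, was called lower at -0.32 ± 0.08, with 17.7 ± 1.98 RPKM in mutant CLP and 22.3 ± 1.61 RPKM in mutant HSC. Mrpl38 was called lower at -0.30 ± 0.10, and not without mutant CLP 1 or 4 or under median-ratio scaling. In wild type Mrpl17, Mrps17, Mrpl50, Mrps25, Mrps30, Mrpl44, Mrpl13 and Mrps5 were called lower, by 0.21 (Mrps30) to 0.38 (Mrps25) on the log2 scale; these 8 calls were lost under median-ratio scaling and with only the groups compared. The count of 11 lower in wild type was 4 without wild-type CLP 2, 7 without wild-type HSC 1 and 7 without wild-type HSC 3. Shares of all genes called in these smaller fits are not given, so the drop in counts describes no trait of the members. The 5 members called higher in wild type, Mrpl37, Mrpl18, Mrps10, Mrpl49 and Mrps36, were called higher in mutants too, and of the 11 lower, Mrpl52 and Mrpl16 were called lower there. Counts differing between genotypes are no test of a difference: the difference of effects called 0 members. Mrps25 has 69.8% of its exon length shared with Nr2c2 on the opposite strand, so its values are uncertain.

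**Figure D4:**
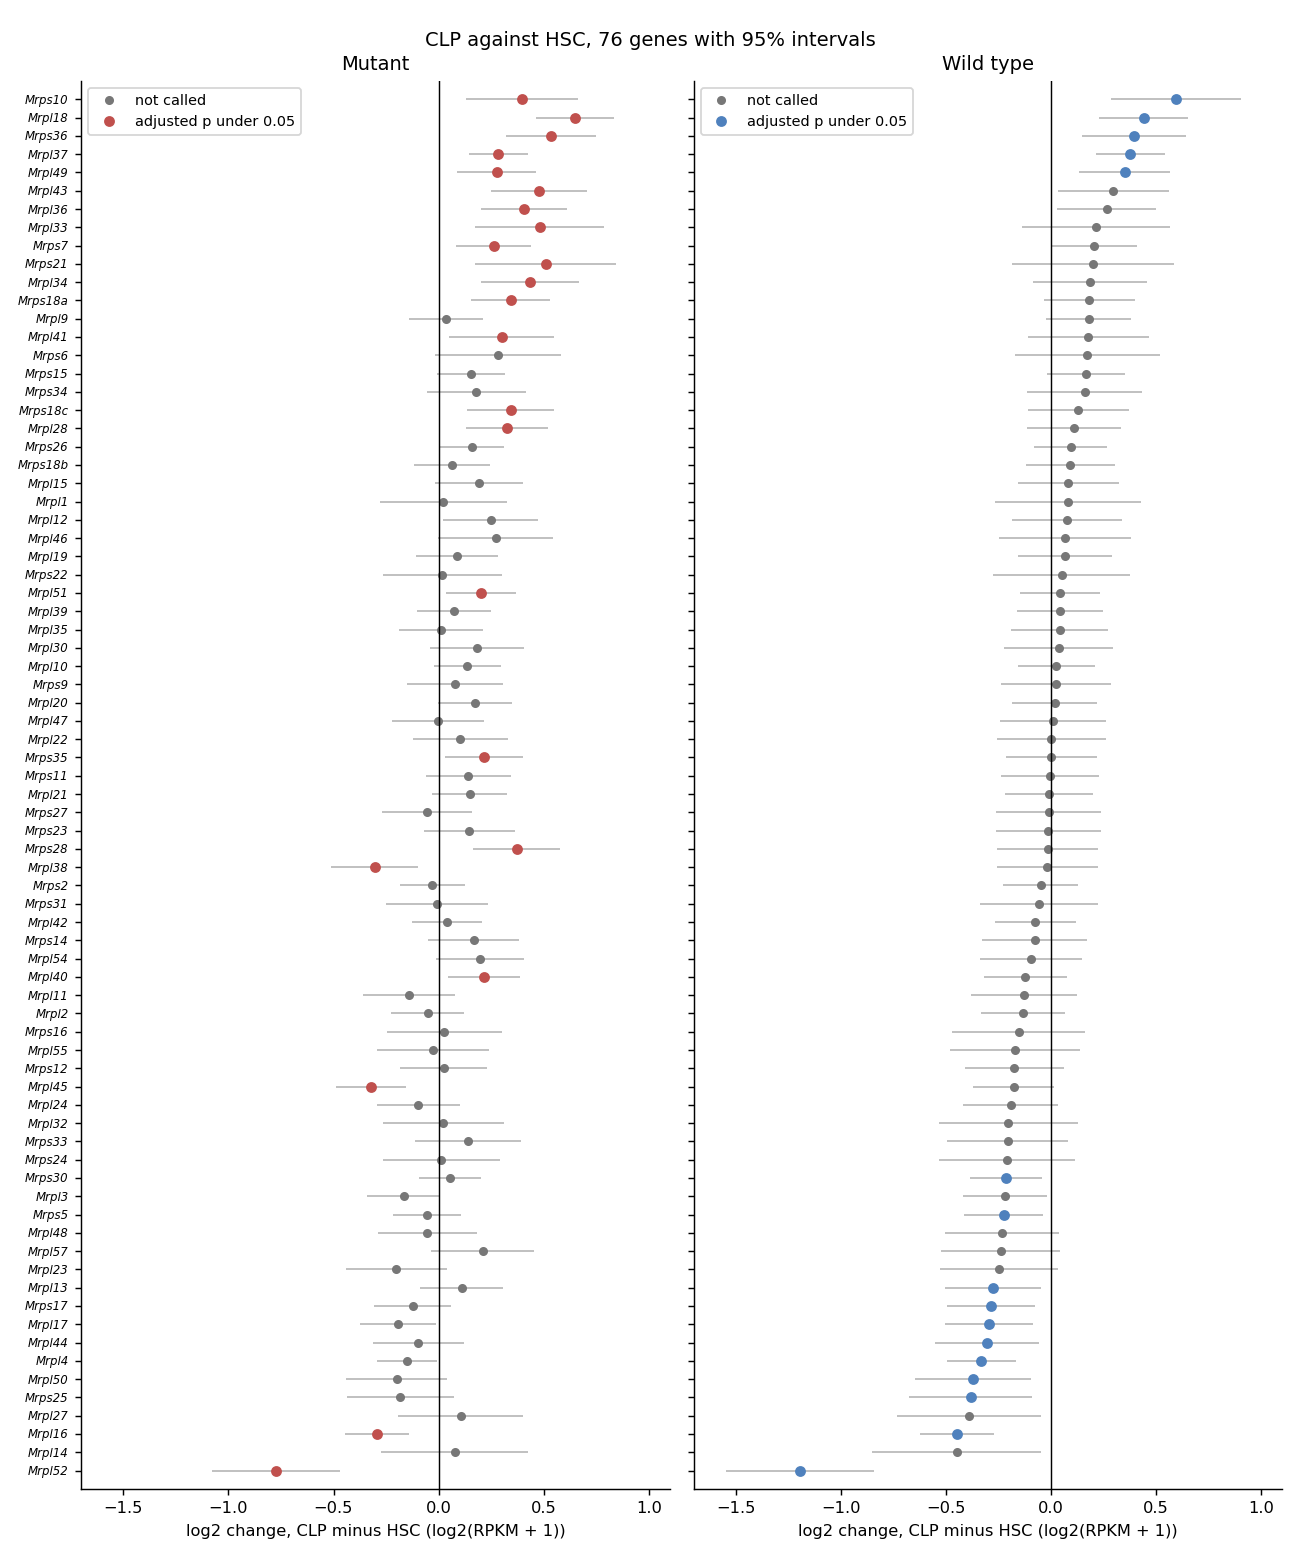
The horizontal axis is the log2 change in CLP minus HSC on the log2(RPKM + 1) scale and each row is 1 of the 76 genes, ordered by the wild-type change, with mutants on the left and wild type on the right; bars are 95% intervals and coloured points have adjusted p under 0.05. Mrpl52 lies apart at -0.77 in mutants and -1.20 in wild type, and 19 members are higher and 4 lower in mutants, against 5 higher and 11 lower in wild type (36 and 3, and 11 and 3, under median-ratio scaling).

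Genes that assemble or serve the mitochondrial ribosome differed between stages in both directions. In CLP against HSC 57.8% of all genes were called in mutants and 51.1% in wild type; of 26 assembly factors the share was 30.8% in mutants and 42.3% in wild type, of 15 translation factors 40.0% and 33.3%, of 22 tRNA synthetase and related genes 40.9% and 31.8%, and of 78 respiratory chain and ATP synthase genes 39.7% and 15.4%. Of the assembly factors 2 rose and 6 fell in mutants and 2 rose and 9 fell in wild type. Rbfa, which helps to mature the small subunit, was higher by 0.65 ± 0.09 in mutants and 0.38 ± 0.10 in wild type (limma, adjusted p = 1.73e-06 and 0.00291), and Ybey, an RNA-processing endonuclease, fell by 0.53 in mutants and 0.52 in wild type. Of 15 translation factors 2 rose and 4 fell in mutants and 3 rose and 2 fell in wild type; the elongation factor Tsfm rose by 0.38 in mutants and 0.28 in wild type, and Guf1, a back-translocase, fell by 0.78 in mutants and 0.66 in wild type. Of 22 tRNA synthetase and related genes 2 rose and 7 fell in mutants and 2 rose and 5 fell in wild type. The seryl enzyme Sars2 rose by 0.59 in mutants and 0.57 in wild type, and the threonyl enzyme Tars2 fell by 0.48 in mutants and 0.43 in wild type. A list of 7 genes held Ndufab1, an acyl carrier protein gene, beside ribosome proteins not named Mrpl or Mrps. Of these 7, 3 rose and 1 fell in mutants, and 0 rose and 1 fell in wild type. Ict1 rose by 0.56 in mutants (limma, adjusted p = 0.000427). Among 78 respiratory chain and ATP synthase genes 29 rose and 2 fell in mutants and 7 rose and 5 fell in wild type. In MPP4 against HSC, where 39.1% of all genes were called in mutants and 39.3% in wild type, of 40 proliferation genes 37 rose in mutants and 39 in wild type, while 4 members rose in mutants and 7 in wild type; the part of proliferation in the members' values was not tested.

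**Figure D5:**
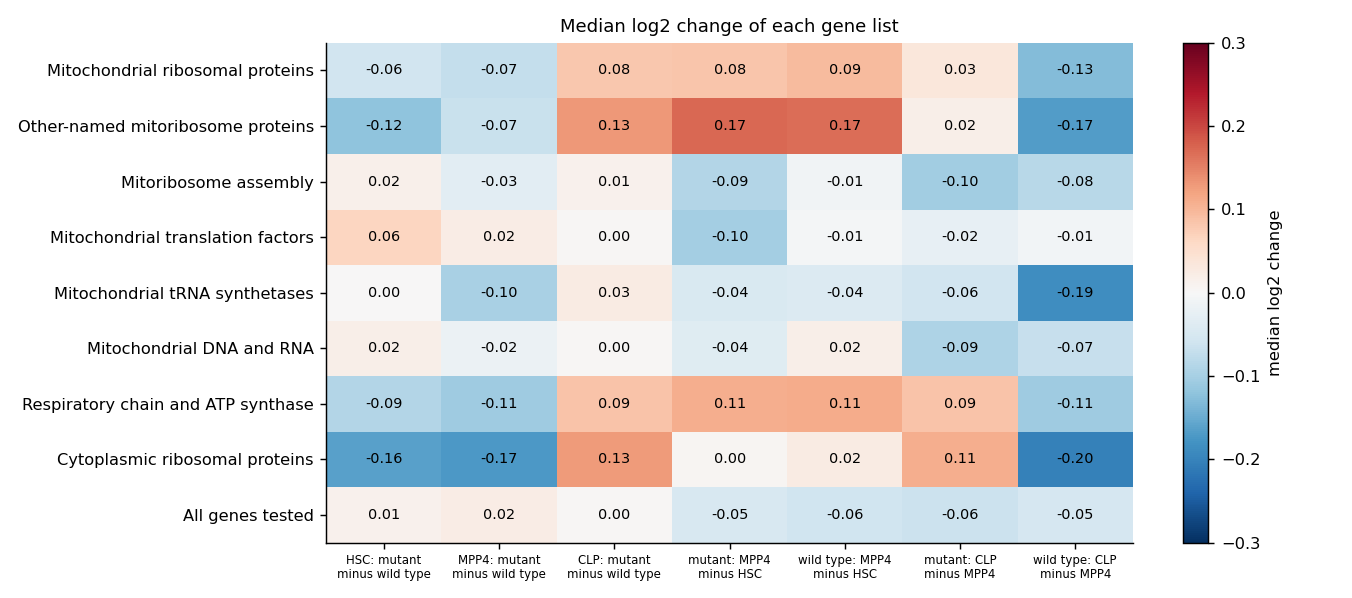
Cells give the median log2 change of each gene list (rows) in each comparison (columns), mutant minus wild type on the left and later minus earlier stage on the right. The family's medians between genotypes are -0.06, -0.07 and 0.08, next to -0.16, -0.17 and 0.13 for cytoplasmic ribosomal protein genes; colour runs from -0.3 in blue to 0.3 in red.

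Neighbouring genes limit what single members show, since the library kit does not mark strand. In the GENCODE annotation 31 members share exonic bases with another gene, 25 of them on the opposite strand, and 6 by more than 25% of their exonic length. Beside Mrps25 and Mrpl43 these were Mrps34 with Mapk8ip3 at 63.4%, Mrpl19 with Gcfc2 at 36.0%, Mrps18b with Gm16279 at 30.5% and Mrpl24 with Rrnad1 at 26.3%. Mrps34 was called higher in wild-type MPP4 while Mapk8ip3 was 7.59 ± 0.48 RPKM there and 9.36 ± 0.45 RPKM in wild-type HSC. Mrpl46 and Mrps11 are neighbours that share 173 bases on opposite strands, and neither was called in any step. Mrpl52, Mrpl37, Mrpl16, Mrpl4 and Mrps10 share no exonic base with another gene.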

How the data were processed

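Polyadenylated RNA of sorted mouse bone marrow cells was sequenced in 21 libraries. The deposited values are RPKM per gene, made by the authors with STAR on mm10 per the submitters' processing notes; of the STAR version, read counter, annotation, strand setting and choice of genes nothing is given in the sources used here. Whole reads could not be recovered from the values, so the depth is unknown and no counting interval is given.

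Of 11628 genes, 11496 had at least 1 RPKM in 3 or more libraries and were kept, among them all 76 members. The symbols of 16 genes that a spreadsheet had turned into dates were restored, and 11619 gene IDs matched RefSeq GRCm38.p6, the source of coordinates and promoters. Log2(RPKM + 1) values were fitted with limma 3.58.1 in R 4.3.3, with a mean per group, a shared spread and a mean-variance trend; p-values were adjusted by Benjamini-Hochberg over all 11496 genes, and a call is an adjusted p under 0.05. A fold change on this scale understates the change of low genes. The code was tested on simulated data. Exon overlaps came from GENCODE, and figures were made with matplotlib 3.10.9.

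Members are all symbols that start with Mrpl or Mrps and a number, which leaves out Ict1, the older symbol of Mrpl58; the members and all lists were chosen with earlier results of these data known. Named genes are the called members with the smallest adjusted p (up to 10 in each direction) or, with fewer than 3 calls, the 5 with the smallest p, the 5 highest, 5 lowest and 5 most variable, the Mrps18 paralogs, the stalk genes and Mrpl45. Alternatives were other pseudocounts, filters, scalings, library weights, covariates, a replicate block, only the groups compared, and leaving out each library.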

Additional observations from a re-analysis of the deposited data

Results flagged for a closer look

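In 147 groups of 4 mutant libraries, the distance of the highest or lowest library to its nearest neighbour, as a share of the group's range, passed Dixon's critical value for 4 samples in 6; chance gives about 1 in 20. In mutant MPP4, library 1 was lowest for Mrpl14, at 54.17 RPKM against 65.11 to 66.38 RPKM (share 0.8957), and for Mrpl28, at 59.65 RPKM against 69.01 to 70.39 RPKM (share 0.8714). Mrpl45 was highest in mutant MPP4 3, at 21.64 RPKM against 20.05 to 20.32 RPKM (share 0.8312). In mutant CLP, library 1 was lowest for Mrpl1, at 7.142 RPKM against 8.616 to 8.786 RPKM (share 0.8966), and for Mrpl21, at 25.02 RPKM against 31.62 to 32.95 RPKM (share 0.8323). Mrpl23 was highest in mutant CLP 2, at 94.07 RPKM against 71.59 to 75.18 RPKM (share 0.8402).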

How the results depend on the processing

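No member was called between genotypes under any alternative, and no called change between stages turned its direction. The members' median log2 change for CLP against HSC in wild type, -0.01, was 0.10 under median-ratio scaling and 0.02 under quantile normalization. Counts of calls between stages are given as higher and lower. Most counts close to those of the main fit are left out. Median-ratio scaling gave 10 and 1 in mutants and 17 and 1 in wild type for MPP4 against HSC, 9 higher in mutants and 1 lower in wild type for CLP against MPP4, and 36 higher in mutants and 11 and 3 in wild type for CLP against HSC. Quantile normalization gave 0 higher in mutants and 1 lower in wild type for CLP against MPP4. With only the groups compared, MPP4 against HSC had 2 lower in mutants and 4 and 1 in wild type, CLP against MPP4 had 2 higher in mutants, and CLP against HSC had 3 lower in wild type. Library weights gave 10 and 2 in mutants and 15 higher in wild type for MPP4 against HSC, 1 lower in mutants for CLP against MPP4, and 8 higher in wild type for CLP against HSC. With sex and age as terms, CLP against MPP4 had 2 lower in mutants. Shares of all genes called are not given for the groups compared alone, library weights, sex and age terms, or the left-out libraries below. Those counts therefore describe no trait of the members. The causes were not tested.

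The labels do not say that a number marks the same mouse across populations, and the ages given for mutant number 4 differ between CLP and the other populations. Deviations of libraries with the same number correlated at 0.094 to 0.481 within a genotype (19 of 21 pairs above 0.1), and the best match had the same number in 36 of 42 cases, a hint from the data. A replicate block with number and genotype as 1 mouse changed the counts of members and of all genes. MPP4 against HSC had 9 and 4 in mutants and 10 and 3 in wild type, with 44.4% and 45.3% of all genes called. CLP against MPP4 had 4 and 2 in mutants and 0 and 6 in wild type, with 30.0% and 17.5% of all genes. CLP against HSC had 23 and 6 in mutants and 7 and 14 in wild type, with 62.3% and 56.0%. With the number as a fixed term in the replicate block, CLP against MPP4 had 3 and 1 in mutants and 4 lower in wild type. Of all genes, 27.6% and 15.9% were called there.

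Alternatives added after seeing the data left out doubted libraries. Without the mutant libraries numbered 1, MPP4 against HSC had 1 lower and CLP against MPP4 had 2 and 1 in mutants. Without wild-type HSC 3 and CLP 2, lower calls in wild type were 0 for MPP4 against HSC, 1 for CLP against MPP4 and 4 for CLP against HSC. Leaving out 1 library at a time gave, for MPP4 against HSC, 3 to 6 higher and 0 to 4 lower in mutants and 4 to 8 higher and 0 to 3 lower in wild type. For CLP against MPP4 it gave 0 to 3 higher and 0 to 2 lower in mutants and 0 to 4 lower in wild type, and for CLP against HSC 14 to 25 higher and 3 to 7 lower in mutants and 5 to 7 higher and 4 to 12 lower in wild type. Calls kept under every one of these settings except the doubted-library ones, and without each single library, were 3 of 8 in mutants and 4 of 10 in wild type for MPP4 against HSC, and 16 of 23 in mutants and 7 of 16 in wild type for CLP against HSC; for CLP against MPP4 none of the 3 calls was kept. The depth is unknown, so counting error could not be set beside these values. For the calls kept, the share kept among all called genes is not given. Mutant groups hold 4 libraries and wild-type groups 3, so the kept counts describe no difference between genotypes.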
